A study of Mus musculus with 6 samples.

Results

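The Myc and Max network is a family of transcription factors that pair with each other through a basic helix-loop-helix leucine zipper. Its 9 members examined here, Myc, Mycn, Max, Mxd1, Mxd4, Mxi1, Mga, Mnt and Mlx, were taken by gene symbol from 26216 gene names in the RNA-seq files of 6 samples. All 9 passed the filter on low values, along with 13108 genes in all. RNA came from long-term and short-term hematopoietic stem cells (LT/ST-HSCs), sorted by FACS from lineage-negative, Annexin-V-negative cells that carried c-kit and sca1 and were CD150+ but CD48-. The 3 Ltbr-/- replicates derived from CD45.2 donors that lack the lymphotoxin-β receptor in all cells, aged 13 weeks for replicate 1, 10 weeks for replicate 2 and 10 to 13 weeks for replicate 3. The 3 Ly5.1 replicates derived from Ltbr-proficient CD45.1 donors, each aged 7 to 13 weeks. Stem and progenitor cells (LSKs) of both genotypes had been given together to the same lethally irradiated Ly5.1/Ly5.2 mice. Cells of several of these mixed chimeras were pooled for each replicate at week 6. Both groups therefore share transplantation and an irradiated host, and the effect of the genotype cannot be told apart from that of the CD45 form or of donor age where these differ.

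Myc and its relative Mycn activate transcription as heterodimers with Max, which binds DNA with each of its partners. Mxd1, Mxd4, Mxi1 and Mnt compete for Max, bind the same DNA element, the E-box, and recruit histone deacetylases through Sin3 corepressors, whereas Mga joins Max to a Polycomb-type repressor complex. Mlx replaces Max as the partner of glucose-responsive factors and can also pair with some of the Mxd proteins and Mnt. In hematopoietic stem cells Myc is known for its part in the balance between self-renewal and differentiation, and Mycn acts redundantly with it.

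The E-box that these dimers bind, CACGTG, reads the same on both strands. It was searched in the RefSeq promoters (GRCm38.p6), which run from 250 bases before to 50 bases after each start site and matched every member but Myc. It occurred in the promoters of 4 of the 8 matched members, namely Mxd4, Mnt, Mlx and Max, and in 7.15% of 32851 promoters in all. The stretches of 30 bases around it are shown because they hold the network's own binding element in genes of the network. The E-box is in capitals and each stretch reads 5′ to 3′ on the strand of its gene.
Mxd4, chr5:34187912-34187941, minus strand: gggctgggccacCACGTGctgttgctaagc
Mnt, chr11:74830789-74830818, plus strand: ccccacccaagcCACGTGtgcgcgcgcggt
Mlx, chr11:101087238-101087267, plus strand: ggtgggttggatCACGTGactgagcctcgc
Max, chr12:76962234-76962263, minus strand: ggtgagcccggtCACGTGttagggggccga

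The first base of the E-box lay 219 bases before the start site of the promoter in Mxd4, 123 in Mnt, 40 in Mlx and 3 in Max. Each of these members had 1 promoter. For Mnt, Mlx and Max its start site lay inside the gene bounds given below, so distances from those bounds differ. In the 100 bases around the start site only the Mlx and Max matches remained, against 2.92% of all promoters. The related element CACGCG, or its complement CGCGTG, was found in the promoter of Mga and of no other matched member, against 9.27% of all promoters. A match is a description of these letters and not a measured binding site. Max, Mlx, Mnt and Mxd4 had log2 fold changes of -0.0009, -0.08, -0.12 and -0.18 in Ltbr-/- cells, and none of them passed the test given below. Among the tested genes with a promoter, 10.8% of the 1095 with CACGTG and 10.1% of the 8084 without it were higher in Ltbr-/- cells, and 3.93% and 4.37% were lower.

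The comparison of Ltbr-/- with Ly5.1 cells asks which genes depend on the receptor. Ltbr was at 24.2, 26.4 and 23.1 in Ltbr-/- replicates 1, 2 and 3 and at 564, 549 and 522 in Ly5.1 replicates 1, 2 and 3, as the labels have it. The values here and below are the deposited linear values, without a unit of reads, and their log2 was tested with limma and Benjamini-Hochberg adjustment. Markers that rose or fell had an adjusted p under 0.05, beside 10.6% of all tested genes that rose and 4.18% that fell. All 10 stem cell markers examined were expressed; 0 rose and 2 fell, Ly6a by 0.39 and Meis1 by 0.23 on the log2 scale, with 5 lower at an unadjusted p under 0.05. The 10 granulocyte and monocyte markers summed to 44380 to 44890 in Ltbr-/- samples and to 58080 to 62710 in Ly5.1 samples, and 9 of them fell. Of these 10 markers, 9 lay in the upper quartile of level, where 8.73% of tested genes fell and 22.4% rose. The 7 mast cell and basophil markers summed to 7792 to 8350 against 4324 to 4955, with 2 higher and 1 lower. The 9 B lineage markers summed to 1411 to 1545 against 2264 to 2429; of the 4 tested, Igkc (-1.21) and Ighm (-1.04) fell and Cd79a (0.62) rose, while Ms4a1 and Pax5 were under the filter. Of 8 erythroid markers, Hba-a1 (0.99) and Hba-a2 (0.86) rose and Car2 (-0.26) fell. Of 5 markers of progenitors or cycling cells, Cd34 (-0.31) and Flt3 (-0.28) fell. The sort did not select on CD34, which the paper uses to define ST-HSCs, so Cd34 also marks cells inside the gate. Of 6 megakaryocyte markers, Itga2b (0.31) rose and Pf4 (-0.33) fell. The 5 T cell markers summed to 42.5 to 45.6 over all samples, with Cd3e and Cd8a at or below 1 and Cd3d, Cd3g and Cd4 between 11.2 and 17.4; 0 of the 1 tested passed. The part of these shifts in the results below was not tested. In these bulk samples, fewer cells of a type and less RNA per cell cannot be told apart.

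Over all tested genes, 10.6% were higher and 4.18% lower in Ltbr-/- cells at an adjusted p under 0.05 (limma). With a fold of at least 1.5 as well, 2.72% were higher and 0.061% lower. In the network, Myc rose, 0 members fell and 0 reached the fold of 1.5. At an unadjusted p under 0.05, 1 member was higher and 1, Mxd4, was lower. For this unadjusted rule no share of all tested genes is given, here or for the lists. Counts under it therefore have no background beside them. The 9 members had a median log2 fold change of -0.0009, beside -0.0113 over all tested genes, and 4 were above 0. The median log2 value of 81 ribosomal protein genes was 13.28 to 13.43 in Ltbr-/- samples and 12.36 to 12.63 in Ly5.1 samples. That of all tested genes was 8.46 to 8.47 in every sample. Centring on the ribosomal protein genes takes their difference between the groups off every gene. When samples were centred on these 81 genes instead, the median of all tested genes moved to -0.89. All 9 members, Myc included, were then lower, as were 97.9% of all tested genes. Directions here are those of the deposited scaling. Centring shifts all genes of a sample alike, so differences relative to the median of all tested genes are by construction the same in both. They ran from 0.23 for Myc to -0.17 for Mxd4.

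**Figure D1:**
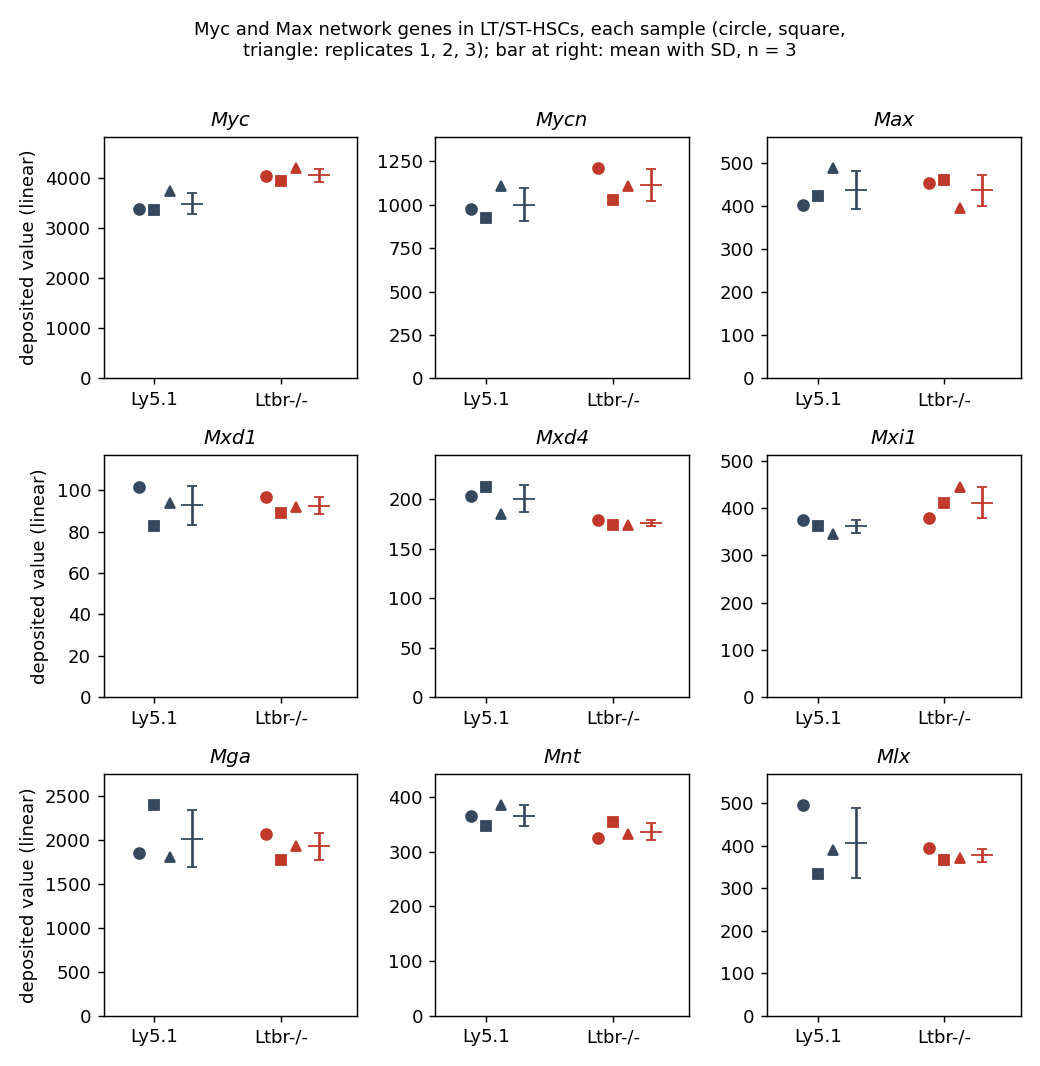
Deposited linear value of each of the 9 network genes (vertical axes, from 0) in the 3 Ly5.1 and 3 Ltbr-/- samples, with the mean and SD of each group to the right (n = 3). Myc and Mxi1 lie higher in all 3 Ltbr-/- samples, as do 17% of tested genes. Mxd4 lies lower in all 3, as do 13.5%, and the groups overlap for the other 6, all on the deposited scaling.

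Myc (chr15:61985341-61990361, GRCm38.p6) is the central activator of the network. It was at 4029, 3937 and 4191 in Ltbr-/- replicates 1 to 3 and at 3373, 3350 and 3731 in Ly5.1 replicates 1 to 3. All Ltbr-/- samples were above all Ly5.1 samples, a separation that 17% of the tested genes showed in this direction. Means were 4052 ± 128.5 and 3485 ± 213.8 (SD, n = 3), a fold of 1.16 with a 95% interval of 1.05 to 1.29. The log2 fold change was 0.22 (SE 0.08) with an adjusted p of 0.0443 (limma), whereas it was -0.66 with centring on ribosomal protein genes. An exact two-sided permutation test gave p = 0.1, the smallest that 3 against 3 samples allow. The call did not hold under quantile normalization (log2 fold change 0.13, adjusted p = 0.220), and it was lost in 5 of the 6 limma fits that left out 1 sample, with adjusted p from 0.0844 without Ltbr-/- replicate 2 to 0.177 without Ltbr-/- replicate 3. Among tested genes in the same upper quartile of level as Myc, 22.4% were higher and 8.73% lower.

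Mycn (chr12:12936093-12941836), which can take the place of Myc in stem cells, was at 1209, 1024 and 1105 in Ltbr-/- replicates and at 973, 923 and 1104 in Ly5.1 replicates. The highest Ly5.1 value lay among the Ltbr-/- values. The fold was 1.11 (95% interval 0.979 to 1.27), and the log2 difference of 0.15 (95% interval -0.03 to 0.34) did not pass (adjusted p = 0.281, limma).

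Max (chr12:76937269-76962323), the partner shared by the activators and repressors, was at 454, 462 and 396 in Ltbr-/- replicates and at 402, 423 and 489 in Ly5.1 replicates. Both the lowest and the highest of the 6 values fell at replicate 3, one in each group. The log2 difference was -0.0009 with a 95% interval of -0.20 to 0.20 (adjusted p = 0.996, limma).

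**Figure D2:**
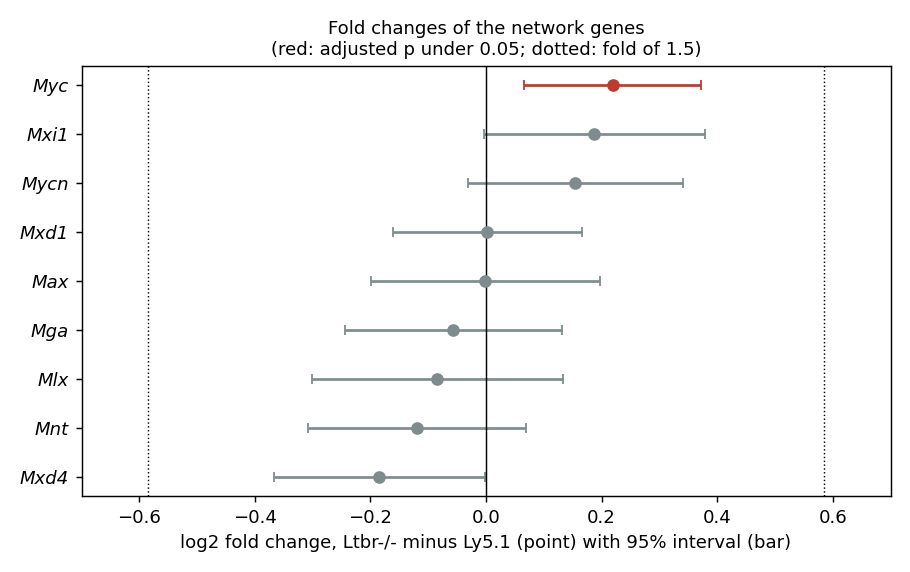
Log2 fold change of each network gene, Ltbr-/- minus Ly5.1 on the deposited scaling (point), with its 95% interval (bar); dotted lines mark a fold of 1.5. Myc at 0.22 is the member whose adjusted p is under 0.05 (red), and no interval reaches either dotted line.

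The Mxd genes encode small antagonists of Myc that are often raised as cells leave the cycle and mature. Mxd4 (chr5:34176580-34187710) was at 179, 174 and 174 in Ltbr-/- replicates and at 203, 213 and 186 in Ly5.1 replicates. All Ltbr-/- values were below all Ly5.1 values, as for 13.5% of the tested genes. The means of 176 ± 2.74 and 200.3 ± 13.7 gave a fold of 0.880 (95% interval 0.775 to 0.998), and the log2 difference of -0.18 had an unadjusted p of 0.0471 and an adjusted p of 0.178 (limma). Of the windows of 76 bases in the Mxd4 transcripts, 4.37% were also found on the opposite strand, in Gm42846, and whether reads were counted by strand is not given in the sources used here.

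Mxi1 (chr19:53310128-53373293), the Mxd family member also called Mxd2, was at 380, 411 and 445 in Ltbr-/- replicates and at 374, 363 and 346 in Ly5.1 replicates. All Ltbr-/- values were above all Ly5.1 values, as for 17% of the tested genes, and replicate 1 of each group lay closest to the other group. Means were 412 ± 32.7 and 361 ± 14.0, and the log2 difference of 0.19 (95% interval -0.0036 to 0.38) did not pass (adjusted p = 0.194, limma). The same value with centring on ribosomal protein genes was -0.69. Mxi1 and Mxd4, both antagonists of Myc, thus had fitted differences of opposite sign on the deposited scaling, neither of them past the threshold.

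Mxd1 (chr6:86647044-86669234) was at 96.7, 88.9 and 92.1 in Ltbr-/- replicates and at 101.7, 82.7 and 93.7 in Ly5.1 replicates. Its 3 Ltbr-/- values all fell inside the range of the Ly5.1 values. The log2 difference was 0.0025 with a 95% interval of -0.16 to 0.17 (adjusted p = 0.989, limma). Mxd1 lies on the same chromosome as the deleted gene, at a distance of 38.6 Mb.

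Mnt (chr11:74830806-74845725), the antagonist of Myc that most cells express irrespective of the cycle, was at 324, 354 and 332 in Ltbr-/- replicates and at 366, 347 and 385 in Ly5.1 replicates. The groups overlapped through replicate 2, the highest Ltbr-/- and the lowest Ly5.1 value. The log2 difference of -0.12 (95% interval -0.31 to 0.07) did not pass (adjusted p = 0.443, limma).

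Mga (chr2:119872503-119970129), a very large protein with both a T-box and a Max-binding domain, was at 2069, 1771 and 1931 in Ltbr-/- replicates and at 1847, 2390 and 1801 in Ly5.1 replicates. Ly5.1 replicate 2 was the highest of the 6 samples, and the others overlapped. The log2 difference was -0.06 (95% interval -0.24 to 0.13, adjusted p = 0.750, limma), and without Ly5.1 replicate 2 it was 0.07.

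Mlx (chr11:101086707-101092207), the Max-like partner, was at 395, 367 and 371 in Ltbr-/- replicates and at 495, 333 and 389 in Ly5.1 replicates. The Ly5.1 replicates held both the highest and the lowest of the 6 values, with an SD of 82.3 beside 15.0 in Ltbr-/- cells. The log2 difference was -0.08 (95% interval -0.30 to 0.13, adjusted p = 0.668, limma), and without Ly5.1 replicate 1 it was 0.07. Mlx overlaps Psmc3ip, and 14.1% of its windows of 76 bases were found there on the opposite strand.

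Levels can be set against each other after division by transcript length. Per kb of the longest coding transcript, Myc had a mean deposited value of 1612 over the 6 samples (range 1433 to 1792), at percentile 95.8 of the 11015 tested genes with a length. Mycn followed at 395 (345 to 452) and Max at 225 (204 to 252). Mlx at 199, Mga at 141, Mxi1 at 76.8, Mnt at 76.5, Mxd4 at 48.6 and Mxd1 at 19.9 came after. In this order Max and Mlx, Mlx and Mga, and Mxi1 and Mnt had overlapping ranges, and the other neighbours did not. The Myc level was 4.08 times that of Mycn, 7.15 times that of Max and 7.27 times the sum of Mxd1, Mxd4, Mxi1 and Mnt, or 5.17, 9.25 and 4.16 times with the median transcript length of each gene. The order depends on the length used for Mxi1, whose transcripts differ widely. With the median length of its coding transcripts Mxi1 was at 259, next after Mycn and before Max at 227, and Mnt rose to 135.

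**Figure D3:**
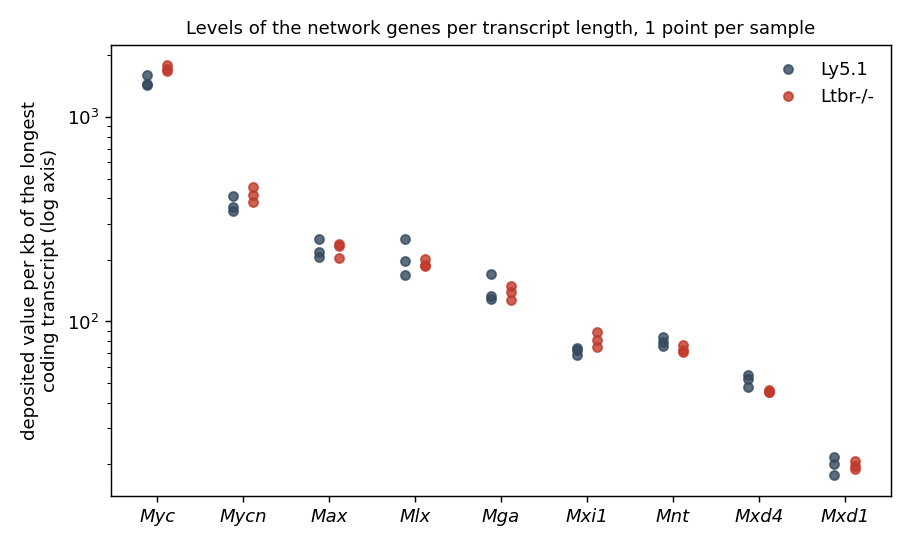
Deposited value per kb of the longest coding transcript (log axis) for the 9 network genes, 1 point per sample, ordered by the mean. Myc lies between 1433 and 1792 and Mxd1 near 19.9, and the groups differ far less for each gene than Myc and Mxd1 do. Some neighbours in the order, such as Mxi1 and Mnt, overlap.

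The difference between 2 genes within a sample does not depend on a factor that scales the whole sample. The log2 difference of Myc minus Mxd4 was 4.49, 4.50 and 4.59 in Ltbr-/- replicates and 4.06, 3.98 and 4.33 in Ly5.1 replicates. Myc minus Mnt was 3.64, 3.47 and 3.66 against 3.20, 3.27 and 3.28. In both pairs every Ltbr-/- sample was above every Ly5.1 sample, with group means 0.40 and 0.34 apart. The same separation was seen for Myc minus 54.8% of the other 13107 tested genes, so it is not particular to these pairs. Myc minus Max was 3.15, 3.09 and 3.40 against 3.07, 2.98 and 2.93, and Myc minus Mxd1 was 5.38, 5.47 and 5.51 against 5.05, 5.34 and 5.32, each 0.22 apart and without overlap. Myc minus Mxi1 overlapped, at 3.41, 3.26 and 3.23 against 3.17, 3.21 and 3.43. Quantile normalization, which does not scale a sample by 1 factor, reduced the distances between group means to 0.31 for Mxd4, 0.25 for Mnt, 0.15 for Max and 0.13 for Mxd1, and gave -0.05 for Mxi1. These differences are given as a description, since the values of Myc enter all of them.

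**Figure D4:**
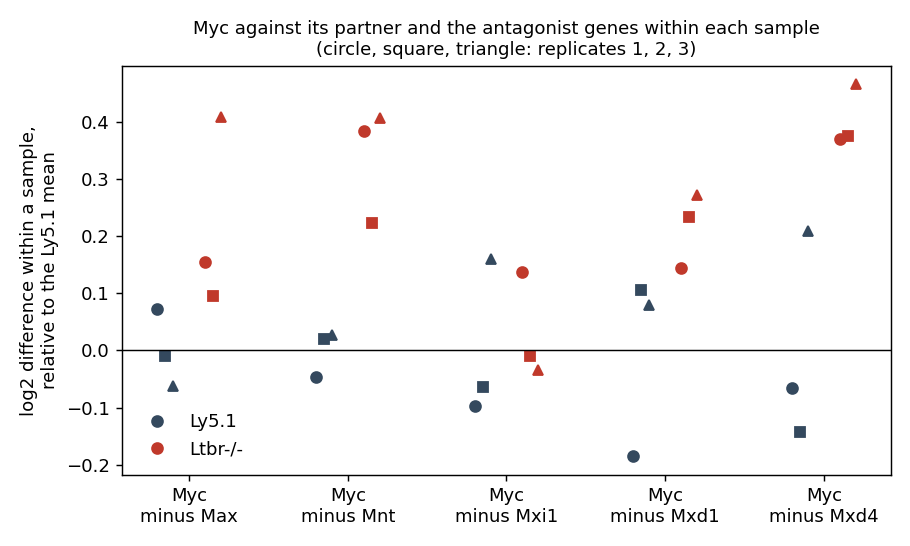
Log2 difference within each sample between Myc and Max, Mnt, Mxi1, Mxd1 or Mxd4, less the mean of the Ly5.1 samples for that pair (vertical axis), by group and replicate. The Ltbr-/- samples lie above the Ly5.1 samples in 4 of the 5 pairs, as they do for 54.8% of Myc's pairs with all other tested genes, and the Mxi1 pair overlaps.

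The 3 tested genes whose log2 values over the 6 samples were most like those of Myc, by the root mean square difference after centring, were Psma1, Ctsd and Rasl2-9. Psma1, a subunit of the 20S proteasome, differed from Myc by 0.0193 and was at 3152, 3014 and 3316 in Ltbr-/- replicates and at 2568, 2620 and 2913 in Ly5.1 replicates. Ctsd, the lysosomal protease cathepsin D, differed by 0.0254, and Rasl2-9 by 0.0270. Like Myc, these 3 genes had their highest Ltbr-/- and highest Ly5.1 values at replicate 3. They were chosen by likeness over the same 6 samples, so this is a description and not a separate result.

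Among the other genes of the extended network, Mycl (listed as Mycl1) at 4.51 to 4.71, Mlxipl at 2.91 to 2.96 and Mycs, at 1 in every sample, were under the filter. Mlxip, which encodes the Mlx partner MondoA, was at 810, 680 and 762 in Ltbr-/- replicates and at 969, 866 and 769 in Ly5.1 replicates (log2 difference -0.21, adjusted p = 0.154, limma). Mxd3 had a log2 difference of 0.04 (adjusted p = 0.851). Of the 2 tested genes, 0 passed the test, and 1, Mlxip, was lower at an unadjusted p under 0.05. The 5 known targets of the Mlx dimers included 0 that passed and 1, Arrdc4, that was higher at an unadjusted p under 0.05. Arrdc4, an arrestin-like relative of Txnip, had a log2 difference of 0.18 (adjusted p = 0.161). Txnip, the inhibitor of thioredoxin whose transcript follows MondoA activity, had one of -0.07 (adjusted p = 0.624), Pklr -0.05, Fasn -0.06 and Acaca -0.15 (adjusted p from 0.352 to 0.761).

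The proteins through which the network acts on chromatin were taken as separate lists. Of 19 coactivators, 1 rose (5.26%, beside 10.6% of all tested genes) and 0 fell (limma; 6 were lower at an unadjusted p under 0.05), and the median of the list was -0.11. Under quantile normalization 3 fell, beside 914 of all 13108 tested genes. Without Ltbr-/- replicate 1 or 2, 2 fell, beside 442 and 302 of all tested genes. The gene that rose, Ruvbl2, encodes a helicase of the TIP60 acetyltransferase and INO80 complexes. It was at 5622, 5200 and 5634 in Ltbr-/- replicates and at 3721, 3810 and 4251 in Ly5.1 replicates, a log2 fold change of 0.48 (SE 0.07, adjusted p = 4.65e-06). Of 17 corepressor genes, 2 rose (11.8%) and 0 fell, with 1 lower at an unadjusted p under 0.05 and a median of -0.02. Sap30, a subunit of the Sin3 deacetylase complex, was at 750.4, 768.5 and 796.5 against 443.6, 543.6 and 467.2, and passed the fold of 1.5 (log2 fold change 0.68, SE 0.09, adjusted p = 7.07e-07). Sin3b, a scaffold that Mxd and Mnt bind, rose by 0.35 on the log2 scale (adjusted p = 0.000836). With centring on ribosomal protein genes, which made 97.9% of all tested genes lower, 0 of both lists were higher and 19 coactivators and 16 corepressors lower.

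Of 23 genes whose products set the stability of the Myc protein, 3 rose (13.0%, beside 10.6% of all tested genes) and 1 fell (4.35%, beside 4.18%). The median was -0.03 (0 higher and 23 lower with ribosomal centring, which made 97.9% of all tested genes lower). Without Ltbr-/- replicate 2 or 3 or Ly5.1 replicate 1, 1 rose and 0 fell, and without Ly5.1 replicate 3, 2 fell. Pim1, a kinase that phosphorylates and stabilises Myc, was at 3018, 3019 and 3016 in Ltbr-/- replicates and at 2233, 1993 and 2309 in Ly5.1 replicates (log2 fold change 0.47, SE 0.08, adjusted p = 2.38e-05, limma). Its relative Pim2 rose by 0.33 (adjusted p = 0.0212). Usp36, a deubiquitinase that removes ubiquitin from Myc in the nucleolus, fell by 0.31 on the log2 scale (adjusted p = 0.0212). The other 19 genes, most of them ubiquitin ligases, deubiquitinases and kinases that act on Myc, did not pass.

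Of 13 tested regulators of Myc transcription and mRNA, 0 rose and 3 fell (23.1%, beside 4.18% of all tested genes), and 0 were higher and 4 lower at an unadjusted p under 0.05 (limma). Of the list, 10 genes lay in the upper quartile of level, where 8.73% of tested genes fell. The list's median was -0.14, and 1 of 13 genes was above 0. Smad3, through which TGF-β signalling represses Myc, was at 379, 370 and 339 in Ltbr-/- replicates and at 496, 451 and 487 in Ly5.1 replicates (log2 fold change -0.40, SE 0.09, adjusted p = 0.00209, limma). Ctcf, an insulator protein that binds near the Myc promoter, fell by 0.34 (adjusted p = 0.00311). For Stat3 the groups overlapped and the log2 fold change was -0.25 (adjusted p = 0.0444), which did not pass without the filter on low values (adjusted p = 0.0824). Rela and Nfkb1, subunits of the NF-κB factors that act downstream of the lymphotoxin-β receptor, had log2 differences of 0.12 and -0.16 (adjusted p = 0.378 and 0.191); they were named for that role after their values were seen.

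Genes that Myc is known to activate were taken as a list of 58 targets after a widely used hallmark collection, many of them in ribosome biogenesis, and a further list of 40. Of the 58 hallmark targets, 8 rose (13.8%, beside 10.6% of all tested genes) and 1 fell, 36 were above 0 and the median was 0.04 (0 higher and 58 lower with ribosomal centring, which made 97.9% of all tested genes lower). The 8 genes were among the 37 in the upper quartile of level, 21.6% beside 22.4% of all tested genes in that quartile. Exosc5, a subunit of the RNA exosome, had the largest fold of the list, at 1634, 1608 and 1851 in Ltbr-/- replicates and at 1077, 1046 and 1328 in Ly5.1 replicates (log2 fold change 0.57, SE 0.09, adjusted p = 1.39e-05, limma). Npm1, the nucleolar chaperone nucleophosmin, was at 6385, 6464 and 6507 against 4402, 4720 and 4645 (log2 fold change 0.49, adjusted p = 9.72e-07), and 17.8% of its windows of 76 bases are shared with other genes. The mitochondrial chaperonin Hspe1 rose by 0.51 (adjusted p = 3.13e-05), with 11.7% of windows shared, and Wdr74 by 0.46 (adjusted p = 0.000183). Utp20, a component of the small subunit processome, fell by 0.28 (adjusted p = 0.0164). None of the 58 reached the fold of 1.5.

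The further list of 40 activated targets held genes of metabolism, nucleolar function, translation and the cell cycle. In it, 6 rose, which is 15.0% beside 10.6% of all tested genes, and 4 of them passed the fold of 1.5, which is 10.0% beside 2.72%. Of the 25 in the upper quartile of level, 20.0% rose beside 22.4% of that quartile and 3 passed the fold beside 8.67%. The median was 0.03 and 24 were above 0. The 4 genes past the fold are of glycolysis and glucose uptake, but not every such gene in the lists rose. The hexokinase gene Hk1, in the same list, had a log2 fold change of -0.17 and did not pass. All its Ltbr-/- values were below all its Ly5.1 values. Its relative Hk2, among the hallmark targets, was at -0.02 with overlapping groups and did not pass either. Ldha, which turns pyruvate into lactate, was at 17950, 18530 and 18870 in Ltbr-/- replicates and at 9376, 9660 and 10570 in Ly5.1 replicates (log2 fold change 0.90, SE 0.06, adjusted p = 3.27e-14, limma). The glycolytic enzyme Eno1 rose by 0.80 (adjusted p = 1.83e-10), the glucose transporter Slc2a1 by 0.74 (adjusted p = 2.79e-08) and the pyruvate kinase Pkm by 0.68 (adjusted p = 7.28e-11). Of their windows, 22.9% of Eno1 and 17.5% of Pkm are shared with other genes on the same strand, 2.36% of Ldha and 0 of Slc2a1. None of the 40 fell (3 were lower at an unadjusted p under 0.05). Under quantile normalization 4 fell, beside 914 of all 13108 tested genes. With ribosomal centring 37 fell, as did 97.9% of all tested genes.

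Genes that Myc represses included 7 that were tested, of which 1 rose (14.3%, beside 10.6% of all tested genes) and 0 fell (limma). At an unadjusted p under 0.05 (limma), 2 were higher and 0 lower, and the median was 0.02. Cdkn1a, which encodes the cell cycle inhibitor p21 and is repressed by Myc together with Miz1, was at 815.5, 966.8 and 1009 in Ltbr-/- replicates and at 514.7, 430.6 and 538.5 in Ly5.1 replicates. All Ltbr-/- values were higher, with a log2 fold change of 0.91 (SE 0.10, adjusted p = 3.35e-09, limma). With ribosomal centring 0 of the list were higher and 6 lower, as were 97.9% of all tested genes. The promoters of 28.3% of the hallmark targets and 21.9% of the further activated targets held CACGTG, beside 8.09% of all genes with a promoter. Of the 6 repressed targets with a promoter, 0 held it.

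**Figure D5:**
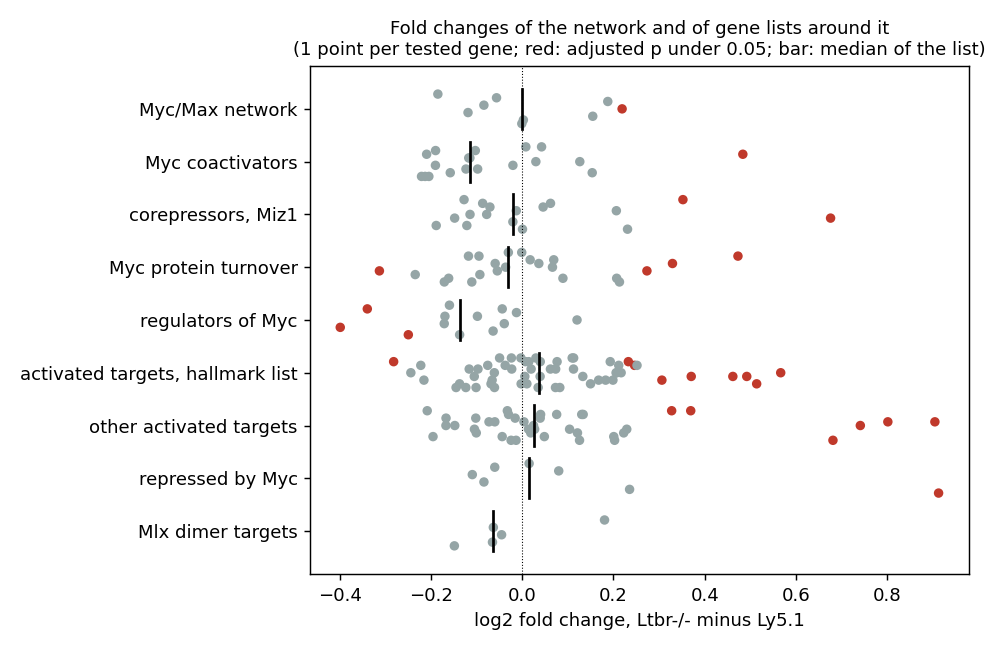
Log2 fold change, Ltbr-/- minus Ly5.1 on the deposited scaling (horizontal axis), of the tested genes in the network and in 8 lists around it, 1 point per gene, with adjusted p under 0.05 in red and the list's median as a bar. List medians lie between -0.14 and 0.04, while single genes such as Ldha (0.90) and Cdkn1a (0.91) lie far from them.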

How the data were processed

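RNA of sorted LT/ST-HSCs was prepared with a stranded mRNA kit, in 3 Ltbr-/- and 3 Ly5.1 replicates. The authors assembled reads with SeqMan NGen and quantified them with ArrayStar, and the submitters' processing notes name GRCm38, mm10 and DESeq2. Their deposited signal per gene and sample is linear, and its values fit 2 to the power of a regularized log, which includes size factors and draws low genes towards their mean. The files hold no counts, so depth per sample cannot be read from them, no counting interval can be given, and precision rests on 3 pooled replicates, whose spread may be partly technical. A log2 of the signal was fitted without a pseudocount in limma 3.58.1 (R 4.3.3; lmFit, then eBayes with an intensity trend), over the 13108 names with a mean in the upper 50%. Calls had an adjusted p under 0.05. Of 26216 names, 75 were repeated (highest mean kept) and 9034 had 1 value in all samples. Names were matched to RefSeq (22316 by symbol, 2222 by synonym) and transcripts to GENCODE M21, which also gave the shared windows of 76 bases. The fit was tested on simulated data, where it called 43% of genes changed by a fold of 1.25 and 90% of those changed by 1.5. There 200 of the 13108 genes were changed, fewer than were called in the data. The adjustment depends on that share, so these rates need not hold for the data. A gene that did not pass can still have changed. Members and lists were chosen with earlier results of these data known, the lists from general knowledge. Named are all members, Ltbr, up to 4 genes past the threshold with the largest change in each direction per list (without any, the 2 with the largest change), all genes of lists of at most 6, and the 3 genes most like Myc; 1 gene under this rule is not reported here. Alternatives were the replicate block, other filters, scalings, variance models, pseudocount and transcript lengths, a narrower promoter window, and leaving out each sample.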

Additional observations from a re-analysis of the deposited data

How the results depend on the processing

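For the 9 members, 141 values were recomputed under 16 alternative settings, and 116 kept their direction and their side of the threshold. Myc kept its direction in all settings but centring on ribosomal protein genes, but its adjusted p rose to 0.0682 without a filter, 0.220 with quantile normalization, 0.0619 without a trend and 0.143 with a per-gene linear model, so that 0 members were higher in these 4 settings. With ribosomal centring Myc was at -0.66, Mycn at -0.73, Mxd1 at -0.88 and Mxi1 at -0.69, 0 members were higher and 9 lower; over all tested genes 17 were higher and 12828 lower, of the hallmark targets 0 and 58, of the further activated targets 0 and 37, of the coactivators 0 and 19, of the corepressors 0 and 16, of the stability genes 0 and 23 and of the repressed targets 0 and 6. Calls over all genes, 1388 higher and 548 lower (71.7% higher), became 1246 and 914 (57.7%) with quantile normalization and 480 and 93 (83.8%) with a per-gene linear model, and 355 were lower without a filter. Of the hallmark targets, 2 were lower with the filter on the upper 25%, 5 with quantile normalization, and 1 was higher with the per-gene model; of the further activated targets, 4 were lower with quantile normalization.

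Leaving out 1 sample gave log2 fold changes of 0.19 to 0.27 for Myc, -0.0601 to 0.0806 for Max, -0.0774 to 0.0721 for Mxd1, -0.1303 to 0.0736 for Mga and -0.2169 to 0.0692 for Mlx, with 0 to 1 members and 5 to 7 hallmark targets higher, 0 to 2 of those targets lower, and 249 to 599 genes lower, fewest without Ltbr-/- replicate 3. The replicate block moved Myc to an adjusted p of 0.0245 and gave 1372 higher and 564 lower genes, and it changed no call among the members; Stat3 no longer passed (adjusted p = 0.0522, limma), and 1 coactivator and 2 stability genes were lower. The labels do not say whether same-numbered samples came from the same mixed chimeras, and the main fit did not pair them. Same-numbered samples deviated from their group means with correlations of 0.0314, -0.0052 and 0.0899, and not every sample correlated best with its own number. A filter on the upper 25% left Mxd1, Mxd4 and Mnt untested. Weakly expressed genes have shrunken fold changes, and the files do not show at what depth.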
